A study of Mus musculus with 21 samples.

Results

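The enzymes described here make or inactivate prostaglandins and leukotrienes, the signalling lipids that cells form from arachidonic acid. A probe set belonged to them if its platform annotation gave 1 of 10 gene symbols: Ptgs1, Ptgs2, Ptges, Ptgis, Ptgds, Hpgd, Alox5, Alox5ap, Ltc4s or Lta4h. The choice used the symbols and no measured value. With 14 probe sets, 8 of the 10 genes could be followed, out of 12393 genes named on the array; Ptgs1 and Alox5 were not analysed here. Each gene is counted by its probe set with the highest mean over all arrays, and the other probe sets are given beside it.

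RNA came from the whole homogenized left lung of female BALB/c mice aged 8 weeks and 21 arrays were analysed, 1 for each biological replicate. Every mouse received a single intratracheal aspiration in Hank's balanced salt solution (HBSS), and the lung was taken 12 h or 3 h later. Mice were given MACA, the crude antigen of the insect-killing fungus Metarhizium anisopliae (20 µg in 50 µl HBSS), bovine serum albumin (BSA, 20 µg in 50 µl HBSS) or 50 µl of HBSS alone. The groups held 3 arrays for MACA 12 h, 4 for BSA 12 h, 4 for HBSS 12 h, 4 for MACA 3 h, 3 for BSA 3 h and 3 for HBSS 3 h. The aspiration and the HBSS were common to all groups, and lungs of mice that aspirated nothing were not analysed here. By the labels the agents differ in how allergenic they are, and the comparisons ask what the lung does after each agent relative to the HBSS vehicle.

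Prostaglandin synthesis starts when phospholipases free arachidonic acid from membranes and the cyclooxygenases Ptgs1 and Ptgs2 turn it into prostaglandin H2. Terminal synthases then give each product: Ptges makes prostaglandin E2, Ptgis makes prostacyclin and Ptgds makes prostaglandin D2, while Hpgd, highly active in lung, oxidizes prostaglandins to forms with little activity. Leukotriene synthesis instead needs Alox5 and its partner protein Alox5ap, which give leukotriene A4; Lta4h converts that to leukotriene B4, an attractant of neutrophils, and Ltc4s joins it to glutathione to give leukotriene C4, the parent of the cysteinyl leukotrienes that contract airway muscle.

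Intensities below were quantile normalized between arrays, and tests were run on log2(intensity + 16) with limma over 22626 probe sets, with Benjamini-Hochberg adjustment within each comparison and a threshold of 0.05. Errors are SD over arrays for levels and SE for log2 differences, which understate the change of dim probe sets. The noise level, an intensity of 40.9, is the size that 95% of the values below 0 do not exceed, and a gene under it on every array of a group is given as a bound. Before any comparison, 2 technical sets of arrays stood apart: the ratio of a spiked hybridization control's 3′ to 5′ probe set was 1.62 to 1.91 on 13 arrays and 0.939 to 1.22 on the other 8. The low set held all 4 HBSS 12 h arrays, BSA 12 h replicates 3 and 4 and MACA 3 h replicates 3 and 4. No set held both MACA 12 h and HBSS 12 h arrays, so that comparison has no value within a set, only one with the set as a term in the fit. The tissue label was checked on 11 lung epithelial genes, surfactant genes among them: all 11 lay above the noise level, with summed intensities of 64717 to 79143 on the 21 arrays.

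The promoters of Ptgs2 and Ptges are shown because these were the 2 enzymes whose levels were higher in MACA lungs at 3 h. They are RefSeq sequences on GRCm38.p6, from 250 bases before to 50 bases after the annotated start, read 5′ to 3′ along the gene's strand. They lie at chr1:150099781-150100080 on the plus strand for Ptgs2 and at chr2:30903248-30903547 on the minus strand for Ptges. The genes themselves span 150100031 to 150108234 of chromosome 1 and 30889471 to 30931020 of chromosome 2. The Ptges window lies inside the span of its gene, so the start used for Ptges is not the outermost one of that span. Ltc4s and Hpgd, lower in MACA lungs at 12 h, span 50236461 to 50238532 of chromosome 11 and 56294552 to 56321046 of chromosome 8. Capitals mark matches to 4 of the 8 motifs searched on both strands.
Ptgs2: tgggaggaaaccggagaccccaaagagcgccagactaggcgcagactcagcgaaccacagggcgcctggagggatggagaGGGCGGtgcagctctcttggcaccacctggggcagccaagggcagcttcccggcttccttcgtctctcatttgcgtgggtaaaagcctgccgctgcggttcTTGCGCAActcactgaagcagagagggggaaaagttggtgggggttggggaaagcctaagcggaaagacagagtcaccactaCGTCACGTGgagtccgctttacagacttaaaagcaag
Ptges: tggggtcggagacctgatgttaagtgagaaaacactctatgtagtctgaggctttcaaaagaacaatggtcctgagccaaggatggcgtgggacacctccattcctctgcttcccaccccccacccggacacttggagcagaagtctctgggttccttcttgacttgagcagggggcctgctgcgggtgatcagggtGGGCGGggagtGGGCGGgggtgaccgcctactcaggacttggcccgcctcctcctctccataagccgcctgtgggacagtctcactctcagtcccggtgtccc

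In the Ptgs2 window the C/EBP motif TTGCGCAA lay at positions -69 to -62 from the start, and 0.183% of 32851 promoters of the same length held that motif. The CRE half-site TGACG, present in 20.8% of promoters, lay on the minus strand at 14 to 18 and overlapped the E-box CACGTG at 17 to 22, which 7.15% of promoters held. The GC box GGGCGG, present in 35.7% of promoters, occurred once at -170 to -165 in Ptgs2 and 2 times in Ptges, at -53 to -48 and at -42 to -37. The other 4 motifs had no match in either window: AP-1 TGANTCA (7.81% of promoters), the NF-kB motif (1.2%), the TATA box TATAAA (13.6%) and Egr GCGTGGGCG (0.612%). A match here is a description of the letters and not a measured binding site.

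In the comparison of MACA with HBSS at 12 h, 3 of the 8 measured enzymes passed the threshold, Ptges higher and Hpgd and Ltc4s lower, where 17.0% of all probe sets did (8.45% higher and 8.60% lower). At 3 h, 2 of 8 passed, Ptgs2 and Ptges, both higher, against 6.13% of all probe sets (3.83% higher). Against BSA, a protein given at the same dose, 1 of 8 passed at 12 h (Ltc4s, lower; 7.11% of all) and 2 of 8 at 3 h (Ptgs2 and Ptges, higher; 4.66% of all). The median log2 difference of the 8 genes was -0.02 at 12 h and -0.09 at 3 h for MACA against HBSS, beside 0 and -0.02 over all probe sets. At each time the comparisons with HBSS and with BSA share the MACA arrays.

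Between BSA and HBSS, limma called 0 of the 8 enzymes at either time, where 1.18% of all probe sets passed at 12 h and 0.150% at 3 h. At an unadjusted p under 0.05, 1 of 8 passed at 12 h (16.3% of all) and 0 of 8 at 3 h (9.79% of all). Between 12 h and 3 h, 4 of 8 passed in MACA lungs (9.12% of all), 0 of 8 in BSA lungs (3.41% of all, and 5 of 8 at an unadjusted p under 0.05, as did 20.1% of all) and 1 of 8 in HBSS lungs (6.93% of all). The MACA to HBSS difference changed with time for 0 of 8 (2.92% of all), with 4 of 8 at an unadjusted p under 0.05 (18.4% of all), and the MACA to BSA difference for 1 of 8, Ltc4s (0.468% of all).

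**Figure D1:**
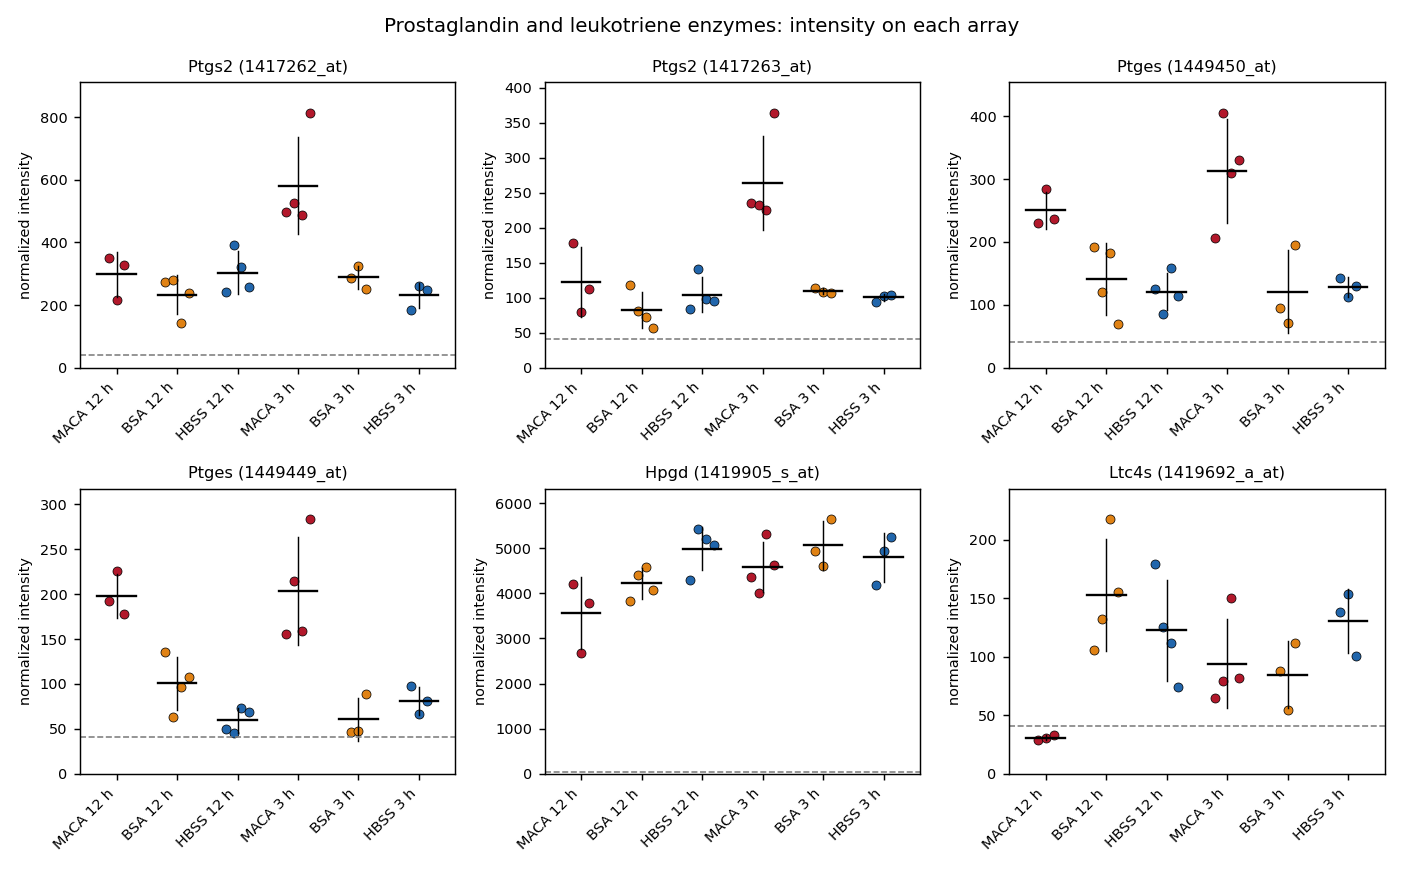
Normalized intensity (linear axis from 0) on each array for the 4 genes that passed the threshold between agents, with the 6 groups along the x axis; points are arrays, horizontal bars are group means, vertical bars are SD and the dashed line is the noise level of 40.9. The 4 MACA 3 h arrays lie above all HBSS 3 h and BSA 3 h arrays for Ptgs2 and Ptges, and the 3 MACA 12 h arrays lie under the noise level for Ltc4s.

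Ptgs2, the inducible cyclooxygenase and first committed enzyme of the prostaglandin branch, was higher in MACA lungs at 3 h and not detectably different at 12 h. Its brighter probe set read 349.6, 216 and 329 in MACA 12 h lungs, 274, 278, 144 and 237 in BSA 12 h lungs, and 242, 392, 321 and 257 in HBSS 12 h lungs. It read 498, 527, 488 and 814 in MACA 3 h lungs, 285, 326 and 253 in BSA 3 h lungs, and 185, 260.0 and 247 in HBSS 3 h lungs. All 4 MACA 3 h arrays were above each of the other 17, while the remaining 5 groups overlapped their neighbours in the order of means.

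The Ptgs2 log2 difference of MACA from HBSS at 3 h was 1.26 ± 0.24 (2.39-fold, limma adjusted p = 0.00523), and that of MACA from BSA at 3 h was 0.95 ± 0.24 (1.93-fold, adjusted p = 0.0334). The dimmer Ptgs2 probe set gave 1.24 ± 0.23 and 1.13 ± 0.23 (adjusted p = 0.00469 and 0.0115). At 12 h the difference from HBSS was -0.03 ± 0.24 (adjusted p = 0.992). Within MACA lungs Ptgs2 was lower at 12 h than at 3 h by a log2 difference of -0.92 ± 0.24 (adjusted p = 0.0225). Between times the MACA to HBSS difference moved by -1.28 ± 0.34, which missed the threshold (adjusted p = 0.0505).

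Within the high technical set, which left MACA 3 h replicates 1 and 2 against 3 HBSS 3 h and 3 BSA 3 h arrays, the Ptgs2 difference from HBSS was 1.11 (adjusted p = 0.0251) and that from BSA 0.81 (adjusted p = 0.107). Fitting the set as a covariate gave 1.32 (adjusted p = 0.00875) and 1.01 (adjusted p = 0.0518). The call against BSA was lost without MACA 3 h replicate 2 or 4 or any 1 of the 3 BSA 3 h arrays (adjusted p = 0.0531 to 0.105), and the call between times in MACA lungs was lost without MACA 12 h replicate 2 (0.138) or MACA 3 h replicate 4 (0.0693).

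Ptges, the inducible synthase that often works downstream of Ptgs2, was higher in MACA lungs at both times by both of its probe sets. The brighter probe set read 230.1, 285 and 236 in MACA 12 h lungs, 192, 121, 183 and 69.4 in BSA 12 h lungs, and 125, 86.1, 158 and 114 in HBSS 12 h lungs. It read 206, 406, 309 and 330.2 in MACA 3 h lungs, 94.8, 71.5 and 196 in BSA 3 h lungs, and 143, 112 and 129.7 in HBSS 3 h lungs. MACA lungs did not overlap HBSS or BSA lungs at either time, while BSA and HBSS lungs overlapped at both. Of all probe sets, 30.1% separated MACA from HBSS lungs in either direction at 12 h and 19.0% at 3 h, and 16.1% and 17.5% separated MACA from BSA lungs.

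By the brighter probe set the log2 difference of MACA from HBSS was 0.98 ± 0.32 at 12 h (1.97-fold, limma adjusted p = 0.0433) and 1.16 ± 0.32 at 3 h (2.23-fold, adjusted p = 0.0408). The dimmer Ptges probe set read 192, 225 and 178 in MACA 12 h lungs, against 49.7, 45.8, 73.4 and 69.3 in HBSS 12 h lungs. Its differences from HBSS were larger relative to their error: 1.52 ± 0.24 at 12 h (2.86-fold, adjusted p = 0.000686) and 1.14 ± 0.24 at 3 h (2.21-fold, adjusted p = 0.0102). Against BSA at 3 h, both passed, at 1.33 ± 0.32 (adjusted p = 0.0259) and 1.52 ± 0.24 (adjusted p = 0.00236). At 12 h the probe sets disagreed on the call against BSA: the brighter gave 0.84 ± 0.32 (adjusted p = 0.125) and the dimmer gave 0.91 ± 0.24 (adjusted p = 0.0319).

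The Ptges calls by the brighter probe set were close to the threshold. Leaving out any single MACA or HBSS 12 h array other than HBSS 12 h replicate 3 ended the 12 h call against HBSS (adjusted p = 0.0667 to 0.153), as did leaving out any of 7 arrays of the other 4 groups. Leaving out any HBSS 3 h array, or MACA 3 h replicate 2, 3 or 4, ended the 3 h call (adjusted p = 0.0781 to 0.122), as did 3 arrays of the 12 h groups. The calls of the dimmer probe set against HBSS held without any 1 of the 21 arrays, with a highest adjusted p of 0.0499 at 3 h. Its 12 h call against BSA did not hold. It was lost without any 1 of the 3 MACA 12 h arrays or BSA 12 h replicate 2, 3 or 4 (adjusted p = 0.0578 to 0.139), with the technical set in the fit (0.0544) and within the high set (0.155). With the technical set in the fit, the 12 h difference from HBSS was 0.86 (adjusted p = 0.222) by the brighter and 1.67 (adjusted p = 0.00511) by the dimmer probe set. Within the high set the 3 h difference was 1.09 (adjusted p = 0.177) by the brighter and 1.04 (adjusted p = 0.117) by the dimmer. The 3 h calls against BSA were also lost within the high set (0.157 by the brighter and 0.0768 by the dimmer), and that of the brighter without MACA 3 h replicate 2, 3 or 4 or BSA 3 h replicate 1 or 2 (0.0544 to 0.156).

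**Figure D2:**
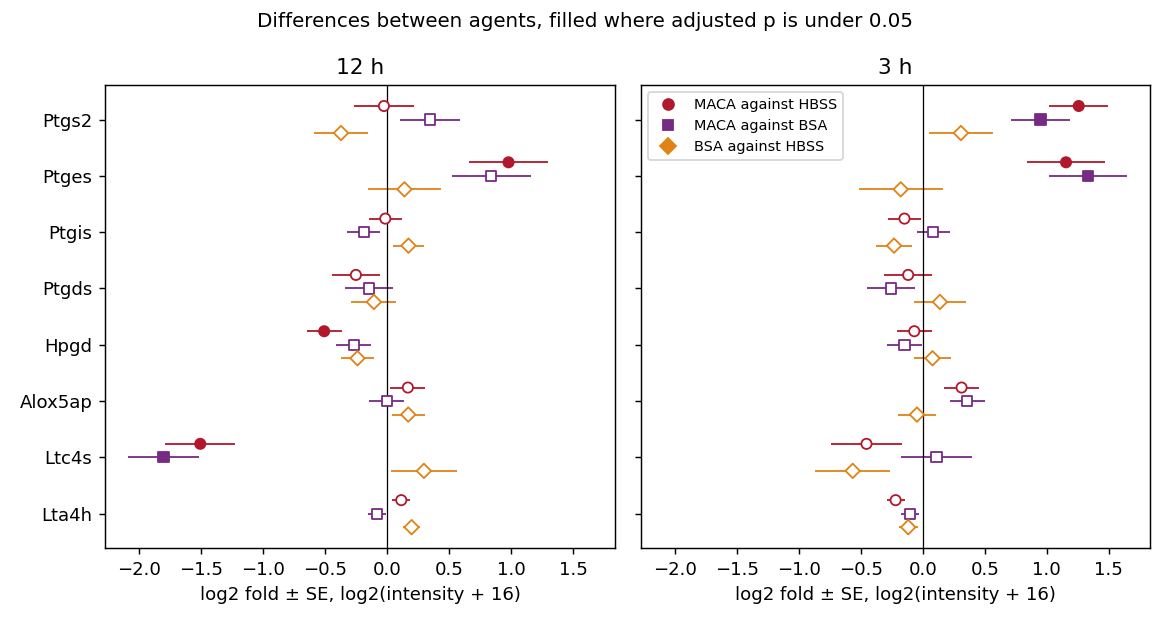
Log2 differences (points) with their SE (bars) for each measured enzyme in the comparisons between agents; values right of 0 are higher in the first-named agent. Ptgs2 and Ptges stand above 0.9 in both MACA comparisons at 3 h, and Ltc4s stands left of 0 in both at 12 h, where its points are fitted values that rest on MACA 12 h levels under the noise level and only their bounds of 2.35-fold and 2.88-fold can be read.

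Ptgis, the prostacyclin synthase of vascular cells, differed between times and not detectably between agents. It read 1448, 1472 and 1711 in MACA 12 h lungs, 1491, 1628, 2054 and 1899.8 in BSA 12 h lungs, and 1586, 1162, 1812 and 1749.9 in HBSS 12 h lungs. The 3 h readings were 2406, 2128, 2479 and 2381 in MACA lungs, 2186, 2179.5 and 2267 in BSA lungs, and 2749.8, 2359.9 and 2702 in HBSS lungs. Every 12 h array lay below every 3 h array. How many of all probe sets separate by time in this way is not given here, so the separation only describes these readings.

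The 12 h against 3 h log2 difference of Ptgis was -0.60 ± 0.13 in MACA lungs (limma adjusted p = 0.00939), -0.33 ± 0.13 in BSA lungs (adjusted p = 0.177) and -0.73 ± 0.13 in HBSS lungs (adjusted p = 0.00472). With no scaling between arrays the HBSS value turned to 0.049 (adjusted p = 0.853), where the median of all probe sets shifted by 0.69. The MACA call was lost without MACA 12 h replicate 2 (adjusted p = 0.0505). Within the high technical set the MACA value was -0.55 (adjusted p = 0.0159), and the HBSS groups have no set in common.

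Ptgds, the lipocalin-type prostaglandin D2 synthase, was near or under the noise level. Its brighter probe set exceeded it on 3 of 21 arrays, 2 of BSA 3 h and 1 of HBSS 3 h, and the dimmer one on 0 of 21. No comparison passed for either probe set, and no fold is given at these levels.

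Hpgd, the dehydrogenase that inactivates prostaglandin E2, was lower in MACA lungs than in HBSS lungs at 12 h. Its brighter probe set, whose name marks probes that other transcripts may share, read 4216, 2673 and 3782 in MACA 12 h lungs, 3820.2, 4405, 4587 and 4078 in BSA 12 h lungs, and 4296, 5415, 5195 and 5066 in HBSS 12 h lungs. At 3 h it read 4364, 3998, 5312 and 4630.2 in MACA lungs, 4933, 4603 and 5644 in BSA lungs, and 4186, 4945 and 5253 in HBSS lungs. MACA 12 h lungs lay wholly below HBSS 12 h lungs, with a narrow gap between 4216 and 4296, and overlapped BSA 12 h lungs. Of all probe sets, 30.1% separated MACA from HBSS lungs in either direction at 12 h.

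The Hpgd difference of MACA from HBSS at 12 h was -0.51 ± 0.14 (1.42-fold lower, limma adjusted p = 0.0203), against -0.27 ± 0.14 from BSA (adjusted p = 0.273) and -0.07 ± 0.14 from HBSS at 3 h (adjusted p = 0.846). The difference between the times was not called (-0.44 ± 0.20, adjusted p = 0.248). The dimmer probe set gave -0.85 ± 0.30 at 12 h (adjusted p = 0.0619). The call was lost without MACA 12 h replicate 2, the lowest array (-0.32, adjusted p = 0.142), without HBSS 12 h replicate 2 (adjusted p = 0.058), and with the technical set in the fit (-0.35, adjusted p = 0.246).

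Alox5ap, the protein that presents arachidonic acid to Alox5, did not pass between agents at either time. It averaged 820.4 ± 128 in MACA 12 h lungs (SD, n = 3), 825 ± 148 in BSA 12 h lungs (n = 4) and 729 ± 108 in HBSS 12 h lungs (n = 4). At 3 h the means were 765 ± 64 in MACA lungs (n = 4), 592 ± 56.4 in BSA lungs (n = 3) and 612 ± 50.4 in HBSS lungs (n = 3). At 3 h the lowest MACA array, 687, was above the highest BSA array, 636, and the highest HBSS array, 661, as 17.5% and 19.0% of all probe sets separated in either direction. The log2 difference there was 0.36 ± 0.14 from BSA (limma adjusted p = 0.156) and 0.31 ± 0.14 from HBSS (adjusted p = 0.214).

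Lta4h, the leukotriene B4 enzyme, varied least of the 8 genes in its group means on the log2 scale, with a range of 0.34. Its brightest probe set read 1073, 1088 and 1126 in MACA 12 h lungs, against 902, 909, 1004 and 848 in MACA 3 h lungs. This was a log2 difference of 0.26 ± 0.07 (1.20-fold, limma adjusted p = 0.0336), lost without any 1 of the 3 MACA 12 h arrays or MACA 3 h replicate 1, 2 or 4 (adjusted p = 0.0596 to 0.115). MACA differed from HBSS by 0.11 ± 0.07 at 12 h (adjusted p = 0.319) and by -0.22 ± 0.07 at 3 h (adjusted p = 0.0855). Of the 2 other Lta4h probe sets, 1 exceeded the noise level on 12 of 21 arrays and the other on 0 of 21.

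**Figure D3:**
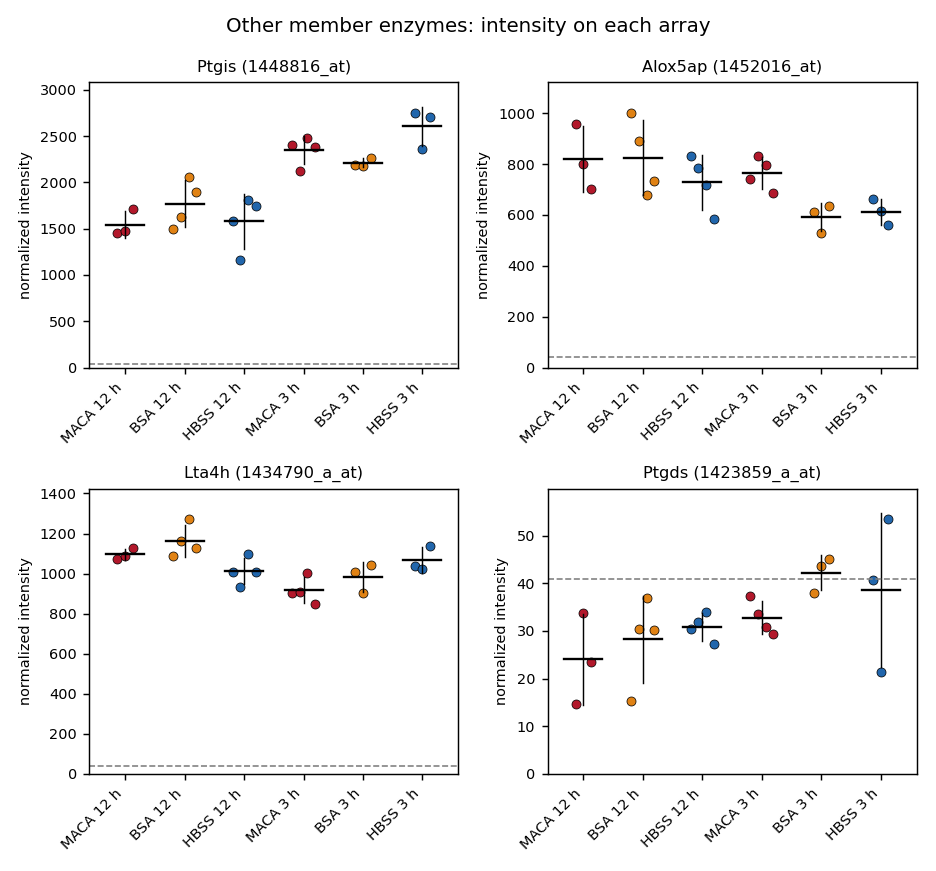
Normalized intensity (linear axis from 0) on each array for Ptgis, Alox5ap, Lta4h and Ptgds in the 6 groups; points are arrays, horizontal bars are means, vertical bars are SD and the dashed line is the noise level of 40.9. All 11 of the 12 h arrays of Ptgis lie below the 10 arrays of 3 h, and Ptgds stays near the noise level.

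Ltc4s, the leukotriene C4 synthase of mast cells, eosinophils, basophils and macrophages, was under the noise level in MACA lungs at 12 h and above it in the 5 other groups. It read 29.1, 30.7 and 33.1 in MACA 12 h lungs, 106, 132, 218 and 156 in BSA 12 h lungs, and 179, 125, 112 and 74.4 in HBSS 12 h lungs. At 3 h it read 64.8, 79.5, 150.0 and 81.8 in MACA lungs, 87.9, 54.8 and 112 in BSA lungs, and 138, 153 and 101 in HBSS lungs. The 3 MACA 12 h arrays were the lowest of the 21 and lay close together, while the other groups overlapped their neighbours in the order of means.

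In MACA 12 h lungs Ltc4s was at least 2.35-fold lower than in HBSS 12 h lungs (limma adjusted p = 0.00214), at least 2.88-fold lower than in BSA 12 h lungs (adjusted p = 0.00185) and at least 1.86-fold lower than in MACA 3 h lungs (adjusted p = 0.0164). At 3 h MACA differed from HBSS by -0.45 ± 0.28 on the log2 scale (adjusted p = 0.391) and from BSA by 0.11 ± 0.28 (adjusted p = 0.891). Limma's test of whether the MACA to BSA difference changed between times passed (adjusted p = 0.0478) and that for the MACA to HBSS difference did not (adjusted p = 0.165). No size is given for either, because the MACA 12 h level is only a bound.

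Both 12 h calls of Ltc4s held without any 1 of the 21 arrays. The call against BSA also held within the high technical set, which held all 3 MACA 12 h arrays and BSA 12 h replicates 1 and 2 (adjusted p = 0.0199). With the set in the fit the call against HBSS no longer passed (adjusted p = 0.0747). The call between times was lost without MACA 12 h replicate 2 (adjusted p = 0.0612), and the change of the MACA to BSA difference was lost without any 1 of 17 of the 21 arrays (highest adjusted p = 0.118).

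Some genes of other cell types were also lower in MACA lungs at 12 h, where Ltc4s was. A list of 8 fat tissue genes, drawn up after the values were seen, had 6 measured members, whose summed intensity was 153 to 253 in MACA 12 h lungs, 705 to 7125 in BSA 12 h lungs, 976 to 2880 in HBSS 12 h lungs, 612 to 6089 in MACA 3 h lungs, 702 to 1205 in BSA 3 h lungs and 534 to 2120 in HBSS 3 h lungs. Of these 6, 2 fell in MACA lungs against both HBSS and BSA at 12 h (Fabp4 and Car3). Of all probe sets, 17.0% passed against HBSS (8.60% lower) and 7.11% passed against BSA in either direction. Adipoq did not pass, with a median of 9.22 in MACA 12 h lungs, against 59.9 in HBSS 12 h lungs. Of 6 heart muscle genes, 3 fell in MACA lungs against both at 12 h (Myl4, Myh6 and Myl7), beside the same 17.0% (8.60% lower) and 7.11%. The heart list had summed intensities of 5406 to 7074 in MACA lungs, 10407 to 13873 in BSA lungs and 9274 to 14956 in HBSS lungs. Of 10 fibroblast and smooth muscle genes, 2 fell against HBSS at 12 h (Pdgfra and Dcn), where 17.0% of all probe sets passed (8.60% lower). Against BSA 1 fell (Dcn), where 7.11% of all passed in either direction. The median log2 difference of the 10 genes from HBSS at 12 h was -0.05. Acta2, Tagln, Col1a1, Col3a1, Des and Myh11 had higher medians in MACA than in HBSS 12 h lungs, and Col1a2 and Pdgfrb had lower ones. Summed intensities of the list were 26382 to 27807 in MACA lungs, 28373 to 32143 in BSA lungs and 26872 to 33276 in HBSS lungs. Dcn, the matrix proteoglycan decorin, had a median of 870 in MACA 12 h lungs, 2251 in BSA 12 h lungs and 1944 in HBSS 12 h lungs. It was lower in MACA lungs at 12 h than in HBSS lungs by -1.07 ± 0.19 (limma adjusted p = 0.00159) and than in BSA lungs by -1.25 ± 0.19 (adjusted p = 0.00175). It was lower than in MACA 3 h lungs by -1.10 ± 0.19 (adjusted p = 0.00206). Its MACA to BSA difference moved by -1.31 ± 0.27 between times (adjusted p = 0.0465). The part of the fat, heart and fibroblast genes in the Ltc4s result was not tested.

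The mast cell, basophil and eosinophil list gave few readings beside Ltc4s. Of its 12 genes, 2 were above the noise level on at least 3 arrays: Hdc, histidine decarboxylase, at 322 to 912 on the 21 arrays, and Cma1, on 5 arrays. Hdc had medians of 665.5, 789 and 578 in MACA, BSA and HBSS lungs at 12 h and of 585, 354 and 464 at 3 h. It passed against BSA at 3 h, higher with MACA (0.68 ± 0.14, limma adjusted p = 0.0142). Its MACA to BSA difference was lower at 12 h than at 3 h (-0.99 ± 0.20, adjusted p = 0.0453), the comparison in which Ltc4s also passed. From 3 h to 12 h Hdc rose in BSA lungs (1.11 ± 0.14, adjusted p = 0.000704) and in HBSS lungs (0.52 ± 0.14, 0.0408). In MACA lungs Hdc did not change detectably (0.12 ± 0.14, 0.694), whereas Ltc4s was lower at 12 h. At 12 h Hdc did not pass between MACA and BSA (0.224) or between MACA and HBSS (0.891). Cpa3, Ms4a2 and Fcer1a were under the noise level on every array. Cpa3 still passed upward in MACA against HBSS lungs at 12 h, as 1 of the 12 genes (17.0% of all probe sets passed), and is given no fold. Summed intensities of the list were 669 to 842 in MACA 12 h lungs, 771 to 1089 in BSA 12 h lungs and 631 to 771 in HBSS 12 h lungs. By the medians above, Hdc made up most of these sums, so they say little about the other genes of the list. In whole lung, fewer cells of a type and less RNA per cell cannot be told apart for any of these genes.

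Some neutrophil genes were higher in MACA lungs where Ptges was, at both times, and where Ptgs2 was, at 3 h. At 12 h Ptgs2 did not pass. Their summed intensity over 11 measured genes was 4412 to 7886 in MACA 12 h lungs, 3087 to 6999 in BSA 12 h lungs, 1855 to 3126 in HBSS 12 h lungs, 7690 to 11815 in MACA 3 h lungs, 1566 to 4298 in BSA 3 h lungs and 1123 to 3529 in HBSS 3 h lungs. Against HBSS, 3 of the 11 rose in MACA lungs at 12 h (8.45% of all probe sets did) and 5 of the 11 at 3 h (3.83% of all), the calprotectin genes S100a8 and S100a9 among them at 3 h. Against BSA, 1 of the 11 rose at 12 h (Csf3r) and 5 of the 11 at 3 h, where 7.11% and 4.66% of all probe sets passed in either direction. Macrophage and monocyte genes gave 4 higher and 1 lower of 10 against HBSS at 12 h (17.0% of all passed), with sums of 10254 to 12620 in MACA 12 h lungs and 9584 to 11186 in HBSS 12 h lungs. Against BSA at 12 h the list gave 2 higher (Itgax and Marco) and 0 lower of 10 (7.11% of all passed). The part of the neutrophil and macrophage genes in the Ptgs2 and Ptges results was not tested. Nor was the part of the macrophage genes in the lower Ltc4s of MACA 12 h lungs.

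Genes around the 8 enzymes were read from 6 lists chosen by role, and each count stands against 17.0% of all probe sets that passed between MACA and HBSS at 12 h and 6.13% at 3 h. Of 14 measured phospholipase genes, which supply the arachidonic acid, 6 were above the noise level on at least 3 arrays. Against HBSS at 12 h, 2 fell in MACA lungs: Pla2g4a, the cytosolic enzyme that starts most eicosanoid synthesis, by a log2 difference of -0.48 ± 0.13 (limma adjusted p = 0.0157), and the secreted Pla2g1b by -0.51 ± 0.15 (adjusted p = 0.0315). Pla2g4a read 237 to 297 in MACA 12 h lungs and 323 to 403 in HBSS 12 h lungs. Pla2g5 also passed upward (adjusted p = 3.05e-05), yet it was under the noise level in both groups and is given no fold. At 3 h 1 of 14 passed, Plaa, a phospholipase activator by name, at 0.44 ± 0.10 (adjusted p = 0.0152). With the technical set in the fit, Pla2g4a and Pla2g1b no longer passed at 12 h (adjusted p = 0.38 and 0.0786). Pla2g4a was also lost without MACA 12 h replicate 1 or 2 (0.0647 and 0.0799). Pla2g1b was lost without any 1 of the 7 arrays of these groups (0.0505 to 0.117), and Plaa without HBSS 3 h replicate 1 or 3 (0.0613 and 0.0658).

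Of 7 other prostanoid synthases, 1 rose and 1 fell in MACA lungs against HBSS at 12 h (17.0% of all probe sets passed), and 0 passed at 3 h (6.13% of all). Tbxas1, the thromboxane synthase of platelets and macrophages, read 152 to 184 in MACA 12 h lungs, 103 to 146 in BSA 12 h lungs and 73.4 to 107 in HBSS 12 h lungs. Its difference from HBSS was 0.81 ± 0.18 (limma adjusted p = 0.0054), a call that was lost with no scaling between arrays (0.562). At 3 h Tbxas1 read 73.6 to 100 in MACA lungs, 77.5 to 99.0 in BSA lungs and 109 to 209 in HBSS lungs. Prxl2b, a prostamide and prostaglandin F synthase, was lower in MACA lungs at 12 h by -0.47 ± 0.11 against HBSS (adjusted p = 0.00683) and by -0.56 ± 0.11 against BSA (adjusted p = 0.00607). The call against BSA was lost within the high technical set (adjusted p = 0.052), with only the groups compared in the fit (0.0774) and with no scaling between arrays (0.174).

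Among 13 other lipoxygenase and leukotriene genes, 1 rose and 1 fell in MACA lungs against HBSS at 12 h (17.0% of all probe sets passed). At 3 h 0 passed (6.13% of all). Cyp4f18, a hydroxylase that inactivates leukotriene B4 in mouse neutrophils, read 181 to 343 in MACA 12 h lungs, 23.2 to 174 in BSA 12 h lungs and 7.13 to 35 in HBSS 12 h lungs, at least 4.39-fold higher than HBSS (limma adjusted p = 0.00176). At 3 h it read 108 to 221 in MACA lungs, 4.32 to 45.5 in BSA lungs and 30.2 to 61.9 in HBSS lungs, and passed against BSA (2.13 ± 0.48, adjusted p = 0.0206) and not against HBSS. Dpep1, a dipeptidase that turns leukotriene D4 into E4, read 559 to 923 in MACA 12 h lungs, against 1034 to 1789 in HBSS 12 h lungs (-0.92 ± 0.19, adjusted p = 0.0039). The Dpep1 call was lost with the technical set in the fit (adjusted p = 0.0555) and with only the groups compared in it (0.0579). Against BSA at 12 h, Alox12 and Ephx2 were also lower (adjusted p = 0.0474 and 0.0355), and both calls were lost within the high technical set (0.277 and 0.34). Cyp4f18 against BSA at 3 h was lost within that set (0.146) and without MACA 3 h replicate 2 or 4 or BSA 3 h replicate 1 or 2 (0.0527 to 0.133).

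Inactivation and transport genes gave 1 higher and 2 lower of 4 at 12 h against HBSS (17.0% of all probe sets passed). Ptgr1 and Ptgr2, reductases that act on prostaglandins after Hpgd, were lower by -0.47 ± 0.14 (limma adjusted p = 0.0356) and -0.39 ± 0.09 (adjusted p = 0.0095). Slco2a1, the prostaglandin uptake transporter, was higher by 0.30 ± 0.07 (adjusted p = 0.00707), a direction that reversed with no scaling between arrays, where the median of all probe sets shifted by -0.55. With the technical set in the fit, Ptgr1 and Slco2a1 no longer passed (adjusted p = 0.445 and 0.102). Ptgr1 was also lost without any 1 of the 3 MACA 12 h arrays or HBSS 12 h replicate 2 or 4 (0.0807 to 0.1). At 3 h against HBSS, 1 of the 4 was higher, Abcc1, and 1 lower, Ptgr2 (6.13% of all probe sets passed). Ptgr2 differed at 3 h by -0.37 from HBSS (adjusted p = 0.0284) and by -0.36 from BSA (0.0417). Both of these calls were lost within the high technical set (0.08 and 0.129).

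Abcc1, an exporter of leukotriene C4, differed at 3 h and was highest with BSA. It read 507 to 571 in MACA 3 h lungs, 625 to 720.1 in BSA 3 h lungs and 288 to 344 in HBSS 3 h lungs. At 12 h Abcc1 read 407 to 479 in MACA lungs, 421 to 499 in BSA lungs and 377 to 477 in HBSS lungs. All of these lay above the HBSS 3 h readings. At 3 h it was higher than in HBSS lungs by 0.76 ± 0.09 with MACA (limma adjusted p = 0.000134) and by 1.09 ± 0.10 with BSA (adjusted p = 7.18e-05). Both calls were lost with no scaling between arrays (0.163 and 0.376). MACA lay below BSA at 3 h by -0.33 ± 0.09 (adjusted p = 0.0437). The difference between MACA and BSA no longer passed within the high technical set (adjusted p = 0.129) and was lost without any 1 of 9 of the 21 arrays, among them MACA 3 h replicates 2 to 4 and BSA 3 h replicates 1 and 2 (0.0634 to 0.194).

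Receptors for the products were also called. Of 9 prostanoid receptors, 2 rose and 1 fell in MACA lungs against HBSS at 12 h (17.0% of all probe sets passed), and 1 rose at 3 h (6.13% of all). Ptger4, a prostaglandin E2 receptor, read 572 to 776 in MACA 12 h lungs, 301 to 369.5 in BSA 12 h lungs and 199 to 281 in HBSS 12 h lungs. At 3 h it read 493 to 795 in MACA lungs, 311 to 417 in BSA lungs and 300.2 to 388 in HBSS lungs, so MACA lungs overlapped neither other agent at either time. Of all probe sets, 30.1% separated MACA from HBSS lungs in either direction at 12 h and 19.0% at 3 h. The shares for MACA and BSA lungs were 16.1% and 17.5%.

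The Ptger4 difference from HBSS was 1.44 ± 0.16 at 12 h (2.70-fold, limma adjusted p = 6.46e-05) and 0.78 ± 0.16 at 3 h (adjusted p = 0.00828). Ptgir, the prostacyclin receptor, was higher in MACA lungs at 12 h by 1.09 ± 0.26 (adjusted p = 0.00828), and Ptgfr, the prostaglandin F receptor, was at least 1.55-fold lower (adjusted p = 0.00272). Of 3 leukotriene receptors, Ltb4r1, the high-affinity leukotriene B4 receptor of neutrophils, was at least 1.71-fold higher at 12 h (adjusted p = 0.0095), and no longer passed with the technical set in the fit (adjusted p = 0.156) or without MACA 12 h replicate 2 (0.0601). The Ptger4 call against HBSS at 3 h was lost without HBSS 3 h replicate 3 (adjusted p = 0.0568). It was also lost with only the groups compared in the fit (0.0947) and with no scaling between arrays (0.32). The 12 h call was lost with no scaling (0.0527).

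**Figure D4:**
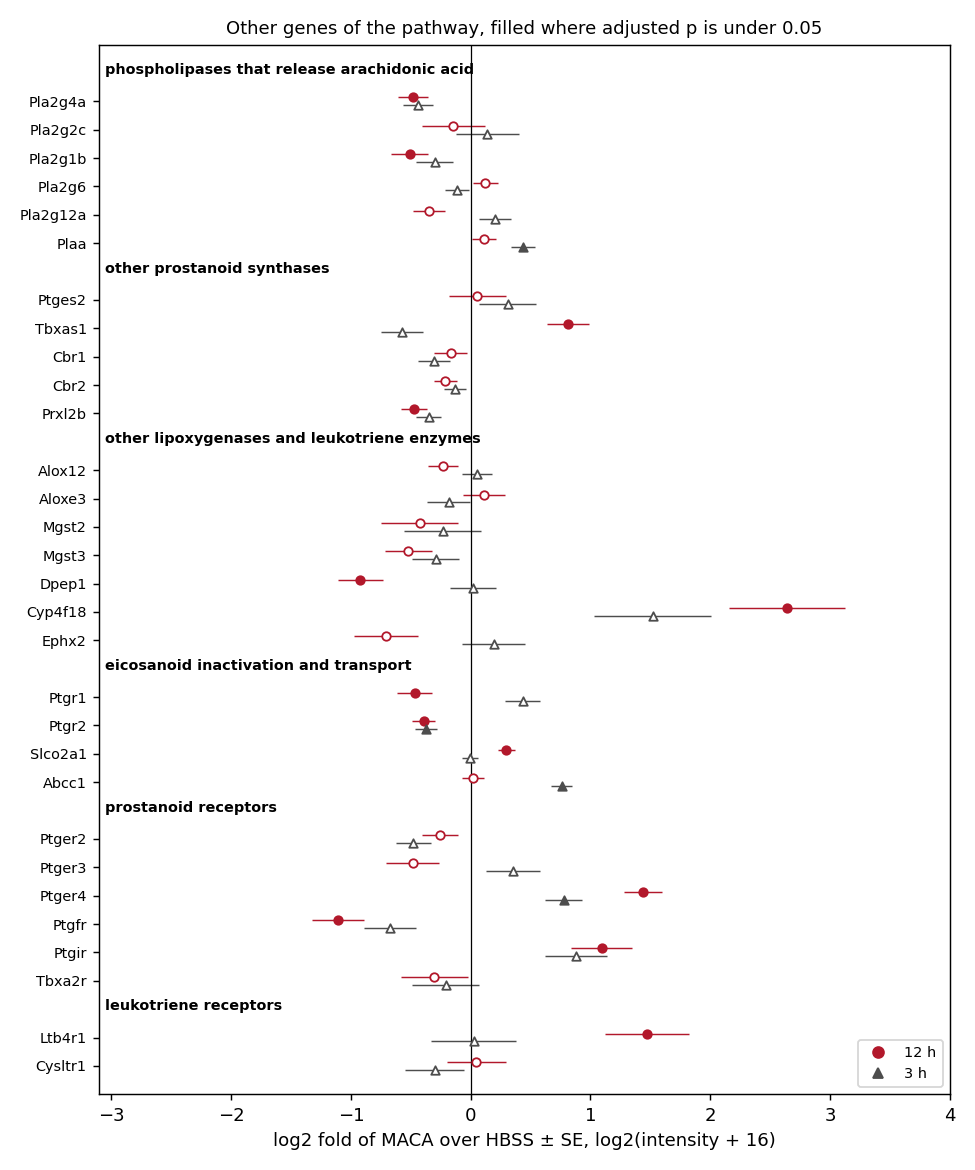
Log2 differences of MACA from HBSS (points) with their SE (bars) for the pathway genes outside the 8 enzymes, at 12 h and at 3 h. Ptger4 and Ptgir lie right of 0 at 12 h and Dpep1 left of it. The 12 h points of Cyp4f18, Ltb4r1 and Ptgfr are fitted against a group under the noise level, so only the bounds in the text can be read for them.

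The genes whose 6 group means ran closest to those of the 3 most variable enzymes were found by the root mean square distance of the centred log2 means, among 9438 genes above the noise level on at least 3 arrays. Nearest to Ltc4s were Thrsp (0.117), Kazald1 (0.171) and Scara5 (0.172), where the fitted Ltc4s means spanned 1.80, the lowest of them under the noise level. Nearest to Ptges were Nfkbie (0.0949), Mmp9 (0.102), itself in the neutrophil list, and Csf2rb (0.109), where Ptges spanned 1.33. For Ptgs2, which spanned 1.27, the nearest were Fosb (0.135), Has2 (0.155) and Angptl1 (0.159), whose mean log2 levels lay under the noise level of 5.83 in at least 5 of the 6 groups. These are likenesses over 6 group means and carry no test.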

How the data were processed

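Whole left lung RNA of 21 samples in 6 agent-by-time groups was measured on 21 arrays of 22690 probe sets. The authors deposited linear intensities, 9.38% to 11.2% of them below 0 per array, with array medians of 93.0 to 287. How probes were summarised is not given in the sources used here. RNA was isolated and biotin-labelled cRNA made, per the labels' protocols.

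After 64 control probe sets were left out, intensities were quantile normalized, values below 0 set to 0 and log2(value + 16) fitted with limma (3.58.1, R 4.3.3; tested on simulated data). The fit had 6 group means, 15 residual degrees of freedom and 11 comparisons. Of 22626 probe sets, 20380 had 1 symbol, 691 several and 1555 none. For 20351 of them the gene number was found in the RefSeq gene table, whose symbol was then used, whether or not it differed. A bound sets a group's mean log2 level against the noise level. Figures used python 3.11.15 and matplotlib 3.10.9.

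Each enzyme was named in every comparison, and other pathway genes by list. The enzymes, lists and tests were chosen with earlier results of these data known, and the alternatives for the other pathway genes were chosen after seeing the data. The number of arrays limits the precision. The highest correlation within a group was 0.991, and 0 pairs of arrays were identical. Of 48 pairs of arrays with the same replicate number in different groups, 15 deviated together with a correlation over 0.1 (-0.151 to 0.391), so the numbers were not taken to pair samples.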

Additional observations from a re-analysis of the deposited data

Results flagged for a closer look

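In 33 groups of 4 arrays with a probe set above the noise level, 3 had an array farther from its neighbour than Dixon's 95% critical value of 0.829, and chance gives about 1 in 20. MACA 3 h replicate 4 was the highest of its group for both Ptgs2 probe sets, at an intensity of 814 by the brighter (next 527) and 364 by the dimmer (next 235). Both Ptgs2 probe sets still passed against HBSS at 3 h without that array (limma adjusted p = 0.0193 and 0.0177). MACA 3 h replicate 3 was the highest for Hpgd by its dimmer probe set, at 375 (next 199.9), and without it the difference of MACA from BSA at 3 h by that probe set passed (limma adjusted p = 0.0361 in place of 0.0705), as it did without BSA 12 h replicate 1 (0.0462).

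For Ltc4s, limma's interaction term for the MACA to BSA difference at 12 h against 3 h passed (adjusted p = 0.0478), with a fitted log2 value of -1.92. That value is no measured size, because MACA 12 h lungs were under the noise level on 3 of 3 arrays (BSA 12 h lungs on 0 of 4), and the call was lost without any 1 of 17 of the 21 arrays.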

How the results depend on the processing

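Counts of the 8 enzymes that passed were recomputed under each alternative. With no scaling between arrays they came to 0 in place of 2 for MACA against HBSS at 3 h, 0 in place of 2 for MACA against BSA at 3 h, 1 in place of 0 for BSA against HBSS at 12 h. Between times they came to 0 in place of 4 for MACA and 5 in place of 1 for HBSS, 3 in place of 0 for the MACA to HBSS difference between times and 0 in place of 1 for the MACA to BSA difference between times. That setting moved the median of all probe sets by -0.55 for MACA against HBSS at 12 h and by 0.69 for HBSS between times. No scaling also reversed Ptgis in HBSS lungs between times to 0.049 and Slco2a1 in MACA against HBSS at 12 h to -0.35. Over all probe sets no scaling called 264 higher and 8807 lower in place of 1911 and 1946 for MACA against HBSS at 12 h, 12588 and 84 in place of 800 and 769 for HBSS between times, and 182 in place of 1387 for MACA against HBSS and 56 in place of 1055 for MACA against BSA at 3 h. Fitting only the groups compared called 673 and 130 probe sets in those 3 h comparisons, and 9 in place of 1608 for MACA against BSA at 12 h. Scaling to the 75th percentile gave 1 in place of 3 for MACA against HBSS at 12 h, and, for the differences between times, 1 for MACA to HBSS and 0 for MACA to BSA. Pseudocount 4 gave 1 for MACA against HBSS at 3 h, and pseudocount 64 gave 1 for the MACA to HBSS and 0 for the MACA to BSA difference between times. Leaving out dim probe sets, 1 probe set per gene and an intensity trend each gave 1 in place of 0 for the MACA to HBSS difference between times. Fitting only the groups compared gave 1 for MACA against HBSS and 0 for MACA against BSA at 3 h, 0 for MACA against BSA at 12 h, 1 for MACA and 0 for HBSS between times and 0 for the MACA to BSA difference between times. With the technical set as a term, the counts were 0 for MACA against HBSS at 12 h, 1 at 3 h, 1 for MACA against BSA at 3 h and 0 for the MACA to BSA difference between times. Within the high set they were 1 for MACA against HBSS at 3 h, 0 for MACA against BSA at 3 h, 1 for MACA between times and 0 for the MACA to BSA difference between times. The replicate block gave 1 for BSA against HBSS at 12 h, 2 for BSA between times and 0 for the MACA to BSA difference between times. The cause of these moves was not tested.

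Leaving out 1 array at a time gave 1 to 3 enzymes for MACA against HBSS at 12 h, 1 to 2 at 3 h, 1 to 1 for MACA against BSA at 12 h, 0 to 2 at 3 h, 0 to 0 for BSA against HBSS at either time. Between times it gave 0 to 4 for MACA, 0 to 0 for BSA, 1 to 1 for HBSS, and 0 to 1 for both differences between times. Of 32 calls of the other pathway genes between agents, 21 were lost with no scaling, 17 with only the groups compared, 14 with the technical set in the fit, 12 of the 18 that could be fitted within the high set and 7 with the replicate block. Of the 32, 15 held without any 1 of the 21 arrays.

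The low signal over background of Ptgds, Ltc4s in MACA 12 h lungs and Pla2g5 limits them to bounds or no fold. Groups of 3 or 4 arrays limit the precision of all comparisons, and no technical set held both MACA and HBSS 12 h arrays, or both HBSS times, so these comparisons and the MACA to HBSS difference between times were not run within a set.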
